A study of Homo sapiens with 23 samples.

Results

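The collagen-modifying enzymes described here are the products of 10 genes: the lysyl hydroxylases *PLOD1*, *PLOD2* and *PLOD3*, the collagen prolyl 4-hydroxylase catalytic subunits *P4HA1* and *P4HA2*, and the lysyl oxidases *LOX*, *LOXL1*, *LOXL2*, *LOXL3* and *LOXL4*. They were chosen by name, as enzyme families, with earlier results of these data known. All 10 were present among the 61806 genes of the first count table and the 42901 of the deep-sequencing table. RNA-seq was performed on A549 cells, an established human lung adenocarcinoma line, after depletion of THUMPD3, an RNA methyltransferase. The first 17 libraries comprised siControl (n = 2) with siD3 #3 (n = 3), harvested 5 days after siRNA transfection, and sh1Control with shD3 #1 and sh4Control with shD3 #4 (n = 3 each), harvested 6 days after treatment. The inducible shRNAs were delivered by lentivirus, with puromycin selection, and induced with doxycycline. The study's methods describe the control libraries as untreated. Whether the shRNA controls received doxycycline is not given in the sources used here. If they did not, drug and knockdown cannot be told apart in the shRNA comparisons. A second set, deep sh1Control and deep shD3 #1 (n = 3 each), was sequenced more deeply, and neither its harvest day nor whether it came from the same cultures as the first shD3 #1 libraries is given in the sources used here. It is not taken as an independent repeat. All control libraries carry the genotype label WT. No control group was shared between comparisons, and the labels call the replicates biological.

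Collagen chains are modified before and after secretion. In the endoplasmic reticulum, P4HA1 or P4HA2 pairs with P4HB to hydroxylate prolines, which stabilises the triple helix, while the PLOD enzymes hydroxylate lysines, PLOD2 mainly in the telopeptides and PLOD1 in the helix. Outside the cell, the copper-dependent lysyl oxidases oxidise lysine and hydroxylysine residues of collagen and elastin, from which the covalent cross-links form. The hydroxylases need oxygen, iron and ascorbate, and *PLOD2*, *P4HA1*, *P4HA2*, *LOX* and *LOXL2* are known hypoxia-induced genes in many tumour cells.

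The core of the hypoxia response element was therefore searched for, as ACGTG and GCGTG on both strands, in RefSeq promoters (GRCh38.p14; 250 bases before to 50 after each start). Entries were found for 9 of the members, and *LOXL2* was not matched. The first-listed promoter of 4 members held either core, against 48.4% of all 35116 promoters (21.4% for ACGTG and 36.5% for GCGTG). The match nearest the start is shown for each, 5′ to 3′ on the strand of the gene, with the core in capitals.
LOX (minus strand, chr5:122078285-122078313): gtaactttgcaaACGTGccagaaagttta
PLOD1 (plus strand, chr1:11934680-11934708): ggcgggcccagtGCGTGgcagcgggacct
PLOD2 (minus strand, chr3:146161314-146161342): caaacagtccagACGTGgggcccaggagg
P4HA1 (minus strand, chr10:73096936-73096964): tgtgatcgagctCACGTagcgagggctgc
The *LOX* window lies 42 bases before the start, that of *PLOD1* 25, that of *PLOD2* 146 and that of *P4HA1* 86, where the core reads on the opposite strand. The first-listed *LOX* promoter held 4 ACGTG cores in all, and its other listed promoters also held cores. Neither core was found in the promoter of *LOXL1*, *LOXL4*, *PLOD3* or *P4HA2*, or in the first-listed promoter of *LOXL3*. The second *LOXL3* promoter held 1 GCGTG. A match is a description of the letters only.

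The targeted transcript was lower in each knockdown without overlap. *THUMPD3* fell from 67.1 to 11.5 TMM-normalised cpm (counts scaled to a library of 1000000) in siD3 #3, from 61.3 to 31.4 in shD3 #1, from 63.2 to 19.8 in shD3 #4 and from 54.3 to 26.9 in deep shD3 #1 (means of 2 or 3 libraries, SD at most 4.03). Library totals ran from 9854294 to 22101059 counts in the first set and from 27285889 to 59974740 in the deep set. Of 7 epithelial markers, 6 exceeded 1 cpm in every group. The summed level of the 7 was 3760 to 6530 cpm in siD3 #3 against 5160 to 6130 in its controls, 7650 to 7940 against 5980 to 6300 in shD3 #1, 4830 to 5280 against 6700 to 6950 in shD3 #4, and 6960 to 7050 against 4760 to 5330 in deep shD3 #1. The summed level of 9 fibroblast markers (with *COL1A1* and *COL3A1* among them) was higher in each knockdown, at 37.6 to 39.7 cpm in siD3 #3 against 9.15 to 13.2 in its controls, 30.2 to 30.9 against 11.8 to 13.6 in shD3 #1, 16.8 to 18.4 against 8.89 to 14.6 in shD3 #4, and 55.1 to 55.3 against 23.8 to 24.1 in deep shD3 #1. In each group 3 to 5 of these 9 reached 1 cpm in at least 1 library. *ACTA2* and *COL1A1* did so in all 8 groups, *THY1* in all but deep shD3 #1, and *LUM* and *COL3A1* in some. *DCN* was at 0 in every library of 6 of the 8 groups, and endothelial markers summed to at most 2.17 cpm. Leukocyte markers summed to at most 4.93 cpm in the first set and to 94.3 to 103 cpm in deep shD3 #1 against 52.2 to 54.7 in its controls, where *CD14* and *CD68* alone exceeded 1 cpm. The part of these markers in the results below was not tested. In bulk RNA, fewer cells expressing a gene and less of its RNA per cell cannot be told apart.

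The members spanned a wide range of expression. Per kilobase of the canonical transcript, *PLOD2* was the most abundant in every control group, at 99.2 ± 7.88 cpm per kb (SD, n = 3) in sh1Control. It was followed there by *PLOD1* (26.5 ± 1.33) and *P4HA1* (26.1 ± 1.08), which did not differ beyond their spread, and by *LOXL2* (16.2 ± 1.34). *PLOD3* (13.2 ± 0.408) and *P4HA2* (12.3 ± 0.799) were also within their spread of each other, and *LOXL4* stood at 0.614 ± 0.130. *LOXL3*, *LOXL1* and *LOX* were at or below 0.139 cpm per kb. In the deep controls *LOXL2* took second place with 60.8 ± 6.80 cpm per kb, after *PLOD2* with 81.0 ± 1.70, although the 2 tables were made separately and levels are not compared between them.

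Each knockdown was tested against its own control with the edgeR quasi-likelihood test, and a gene was called when its Benjamini-Hochberg adjusted p over all genes tested was under 0.05 and its change at least 1.5-fold. After the filter on low counts, 7 of the 10 members were tested in each of the first comparisons, where *LOX*, *LOXL1* and *LOXL3* did not pass, and 9 in the deep one, where *LOXL1* did not. In siD3 #3, 2 members were called higher (*LOXL4* and *P4HA2*) and 0 lower, where 12.5% of the 17032 genes tested were called higher and 9.42% lower. In shD3 #1, 2 were higher (*LOXL4* and *PLOD3*) and 1 lower (*LOXL2*), against 14.5% and 14.6% of 16456 genes. In shD3 #4, 0 were higher and 1 lower (*LOXL2*), against 8.00% and 4.49% of 16493 genes. In deep shD3 #1, 2 were higher (*PLOD1* and *PLOD3*) and 1 lower (*LOXL2*), against 15.0% and 14.1% of 18763 genes. At an unadjusted p under 0.05, 1 member was lower in siD3 #3 (*P4HA1*) and 2 were higher in shD3 #4 (*PLOD1* and *PLOD3*), and DESeq2 also called 0 there. No test of the members as a list was made. The median log2 fold change of the members tested was 0.26, 0.42, 0.05 and 0.12 in these comparisons, where that of all genes was 0.03, -0.01, 0.01 and -0.02.

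**Figure D1:**
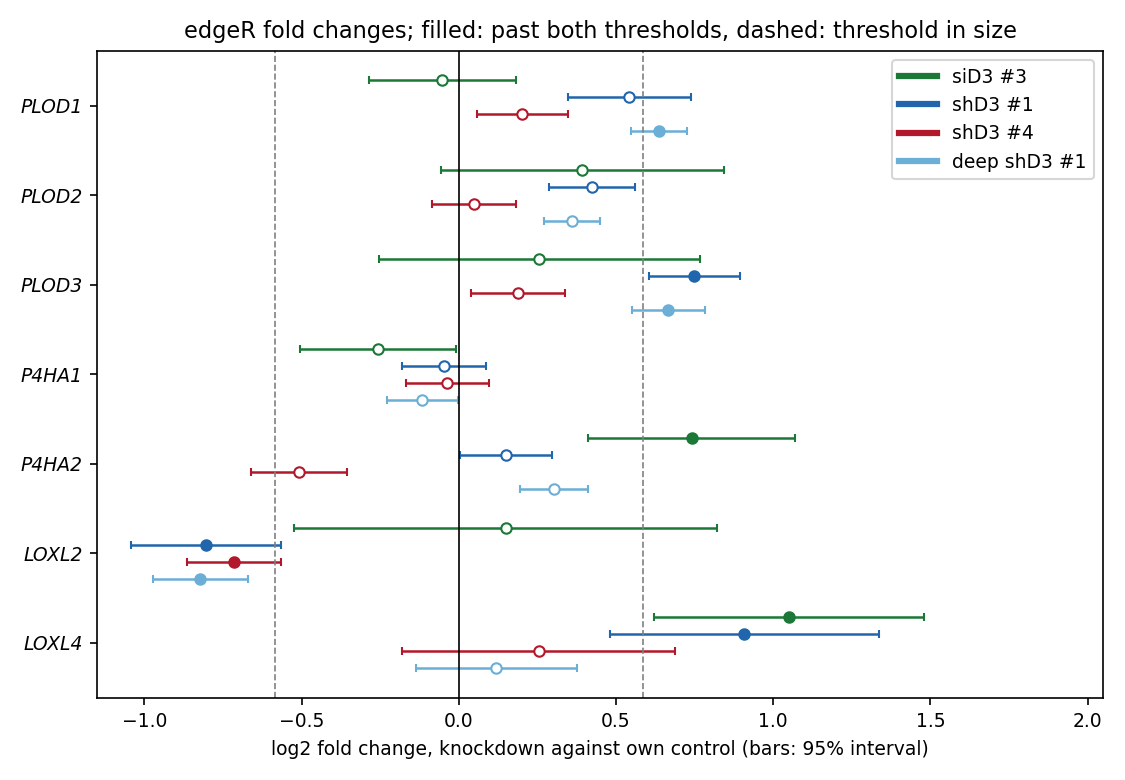
Log2 fold change of 7 members (rows) in each knockdown against its own control (x axis), with 95% intervals from edgeR; filled points passed both thresholds and dashed lines mark a 1.5-fold change. *LOXL2* lies between -0.82 and -0.71 in the shRNA comparisons and its interval spans 0 in siD3 #3, while *P4HA2* lies at 0.74 in siD3 #3 and -0.51 in shD3 #4.

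Among the lysyl hydroxylases, *PLOD3* and *PLOD1* were higher with shD3 #1 in both sequencing sets. *PLOD3*, which also glycosylates hydroxylysine, stood at 38.2, 37.2 and 36.0 cpm in sh1Control and at 63.7, 64.7 and 58.2 in shD3 #1. These groups did not overlap, and the log2 fold change was 0.75 ± 0.07 (SE; edgeR adjusted p = 1.41e-07). In the deep set it rose from 80.4, 86.3 and 78.3 cpm to 135.0, 133.4 and 120.4, a log2 fold change of 0.67 ± 0.05 (adjusted p = 6.64e-08). In shD3 #4 the values were 29.0, 29.8 and 32.4 cpm in controls and 36.2, 32.5 and 35.1 after knockdown, close together but not overlapping, and the log2 fold change of 0.19 ± 0.07 (adjusted p = 0.0383) stayed under 1.5-fold. Its adjusted p ranged from 0.11 to 0.156 without sh4Control replicate 1 or 2 or shD3 #4 replicate 1 or 3, and was 0.153 with DESeq2. In siD3 #3 the groups overlapped, with 44.9 and 26.3 cpm in siControl against 37.6, 40.3 and 49.95 (log2 fold change 0.26 ± 0.22, adjusted p = 0.41), and without siControl replicate 2, the low library, the estimate was -0.09. *PLOD3* (chromosome 7, 101205977 to 101218420, minus strand) overlaps *ZNHIT1* on the other strand, which was itself higher in shD3 #1 (log2 fold change 0.83, adjusted p = 1e-06) but stood at 0.23 in the deep set. The kit kept strand, but which strand was counted is not given in the sources used here, so shared reads were not tested.

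*PLOD1* (chromosome 1, 11934205 to 11975538, plus strand) was measured at 80.0, 82.0 and 74.4 cpm in sh1Control and at 121.4, 127.6 and 93.6 in shD3 #1. The third knockdown library was the lowest of its group but still above every control. The log2 fold change was 0.54 ± 0.09 (adjusted p = 0.000111), just under 1.5-fold, and was 0.66 without shD3 #1 replicate 3, which brought it past the threshold. The deep libraries gave 114.7, 112.4 and 106.9 cpm in controls and 174.1, 172.1 and 173.3 after knockdown, a rise of 0.64 ± 0.04 on the log2 scale (adjusted p = 7.23e-09). With shD3 #4 the values were 65.0, 64.5 and 77.7 cpm in controls and 79.2, 79.2 and 79.9 after knockdown (0.20 ± 0.07, adjusted p = 0.0234). The adjusted p was 0.0506 to 0.165 without any 1 of these libraries except sh4Control replicate 3, and 0.0626 with DESeq2. In siD3 #3 the groups overlapped, at 58.9 and 54.3 cpm against 50.3, 53.9 and 59.5 (-0.05 ± 0.10, 95% interval -0.29 to 0.18).

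*PLOD2* (chromosome 3, 146035139 to 146163725, minus strand), whose product sets the type of cross-link through telopeptide lysines, had an estimated change under 1.5-fold in each comparison. It stood at 381.1, 395.4 and 338.6 cpm in sh1Control and 493.6, 488.8 and 513.8 in shD3 #1, without overlap, a log2 fold change of 0.42 ± 0.06 (adjusted p = 3.37e-05). The deep set gave 0.36 ± 0.04 (adjusted p = 3.19e-06). With shD3 #4 the difference was 0.05 ± 0.06, with a 95% interval of -0.08 to 0.18. With siD3 #3 the libraries held 310.1 and 314.9 cpm in controls and 337.9, 357.4 and 535.8 after knockdown. The third knockdown library stood well above the other two, and the change of 0.39 ± 0.19 did not pass the test (adjusted p = 0.158). Without that library it was 0.14, and in the fit of all 17 libraries the adjusted p was 0.0194.

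**Figure D2:**
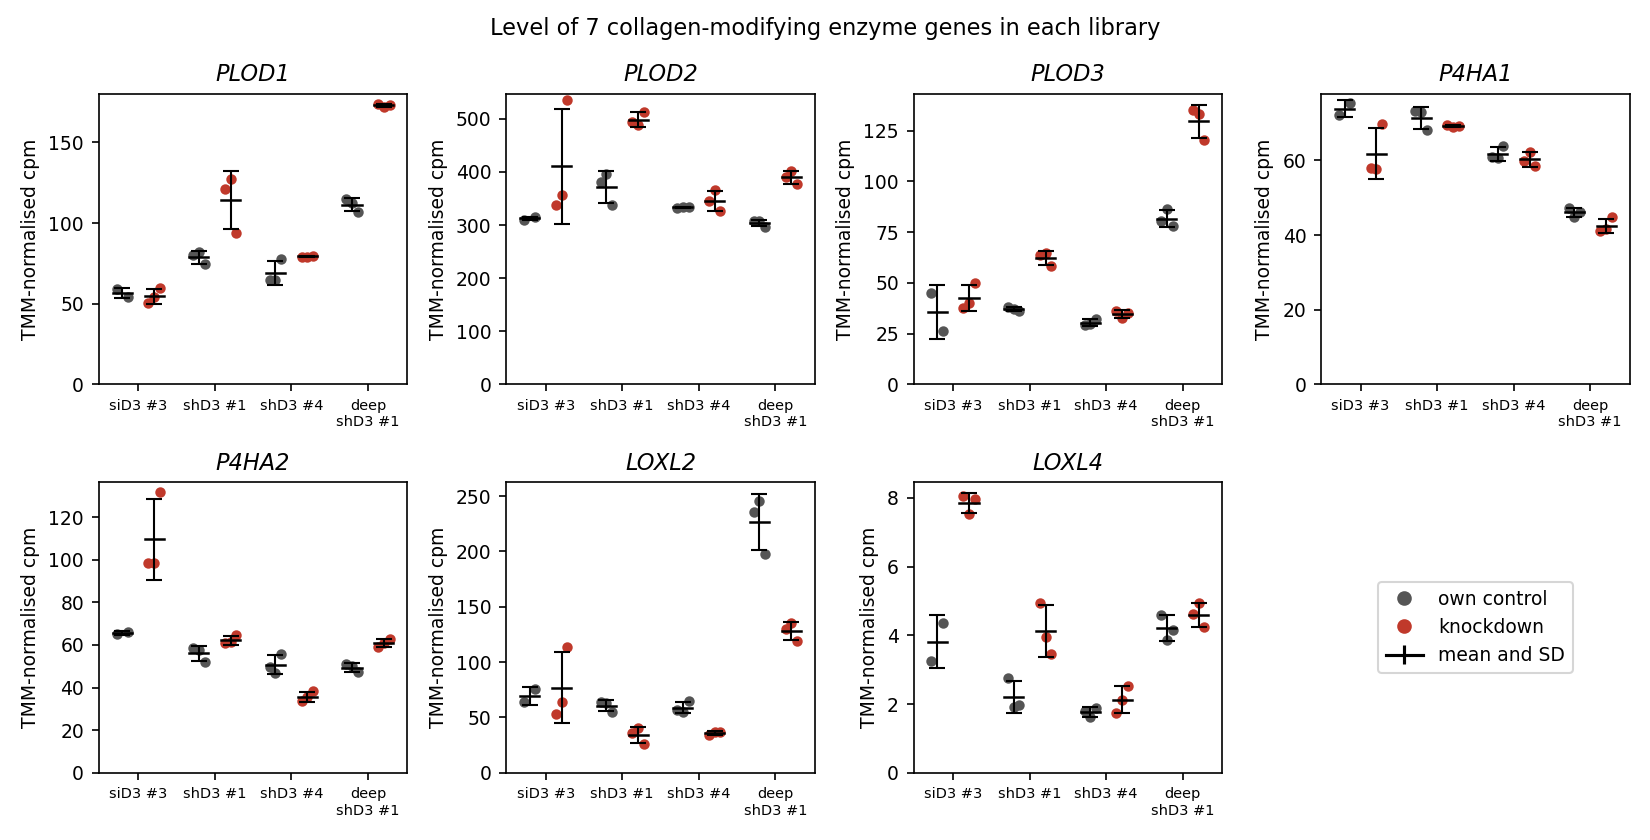
TMM-normalised cpm (y axis, from 0) of the 7 members tested in every comparison, in each library of the 4 comparisons (x axis); grey points are controls, red points knockdowns, and bars give mean and SD. *PLOD1* and *PLOD3* are higher in shD3 #1 in both sets, *LOXL2* is lower in all 3 shRNA comparisons, and siD3 #3 replicate 3 is the highest library of its group for 6 of the 7 members, all but *LOXL4*.

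The prolyl hydroxylase subunits differed from each other. *P4HA1* (chromosome 10, 73007217 to 73096974, minus strand) was not called in any comparison. Its log2 fold changes were -0.26 (95% interval -0.51 to -0.01; adjusted p = 0.103) in siD3 #3, -0.05 (-0.18 to 0.09) in shD3 #1 and -0.04 (-0.17 to 0.09) in shD3 #4. In siD3 #3 the adjusted p depended on the fit. It was 0.00458 without replicate 3 (-0.36) and 0.0108 in the fit of all 17 libraries (-0.26). A replicate block gave 0.00419 (-0.35). As siControl has no replicate 3, that block also takes siD3 #3 replicate 3 out of the estimate and is not a separate check. The deep set gave -0.12 (-0.23 to -0.004; adjusted p = 0.0678, and 0.0264 without deep shD3 #1 replicate 3). Changes of 1.5-fold lie outside each of the 95% intervals.

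*P4HA2* (chromosome 5, 132190147 to 132295315, minus strand) was higher in siD3 #3 and lower in shD3 #4. It stood at 65.0 and 66.2 cpm in siControl and at 98.6, 98.5 and 131.6 in siD3 #3. The groups were well apart, and the gene rose by 0.74 ± 0.14 on the log2 scale (adjusted p = 0.00626). This call rests on few libraries: without siD3 #3 replicate 3 the change was 0.58, under 1.5-fold, and without siControl replicate 1 it was 0.72 with an adjusted p of 0.0527. In shD3 #4 the values were 49.9, 46.8 and 55.8 cpm in controls and 33.6, 35.4 and 38.3 after knockdown, again without overlap. That fall of 0.51 ± 0.07 (log2 fold change -0.51, adjusted p = 4.66e-06) was under 1.5-fold. With shD3 #1 the values were 58.7, 57.5 and 51.9 cpm in controls and 60.7, 61.4 and 64.7 after knockdown, a difference of 0.15 ± 0.07 (adjusted p = 0.0749), and the deep set gave 0.30 ± 0.05 (adjusted p = 0.000115).

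The ratio of *P4HA2* to *P4HA1* counts within a library needs no scaling between libraries. It was 0.888 ± 0.0155 (SD, n = 2) in siControl and 1.77 ± 0.107 (n = 3) in siD3 #3, 0.783 ± 0.0195 and 0.899 ± 0.0322 for shD3 #1, 0.821 ± 0.0502 and 0.594 ± 0.0517 for shD3 #4, and 1.07 ± 0.04995 and 1.43 ± 0.0285 in the deep set (n = 3 each). The groups did not overlap in any comparison. A two-sided exact permutation test gave p = 0.2 for siD3 #3 and p = 0.1 for each of the others, the smallest that 3 against 3 libraries allow, so this design cannot reach 0.05.

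**Figure D3:**
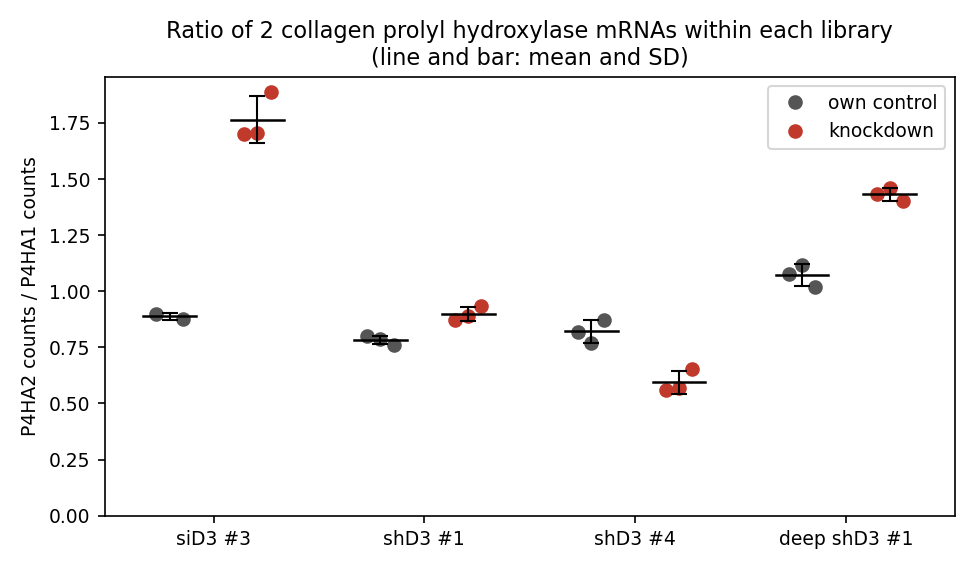
Counts of *P4HA2* divided by counts of *P4HA1* in each library (y axis, from 0), for the 4 comparisons (x axis); grey points are controls, red points knockdowns, and bars give mean and SD. The ratio is above its controls in siD3 #3 (1.77 against 0.888), shD3 #1 and deep shD3 #1, and below them in shD3 #4 (0.594 against 0.821).

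Of the lysyl oxidases, *LOXL2* (chromosome 8, 23296897 to 23425328, minus strand), which cross-links collagen IV and fibrillar collagens, fell with both shRNAs. It stood at 63.8, 62.8 and 54.7 cpm in sh1Control and at 35.5, 40.5 and 26.3 in shD3 #1, a log2 fold change of -0.80 ± 0.11 (adjusted p = 1.56e-05). In shD3 #4 the values were 57.0, 54.8 and 64.5 cpm in controls and 33.7, 36.9 and 36.9 after knockdown (-0.71 ± 0.07, adjusted p = 1.53e-08). The deep set held 235.6, 245.5 and 197.6 cpm in controls and 129.7, 135.2 and 119.2 after knockdown (-0.82 ± 0.07, adjusted p = 1.18e-07). No knockdown library reached its controls in these 3 comparisons. In siD3 #3 the values were 63.6 and 75.4 cpm in controls against 53.4, 63.6 and 114.1, and replicate 3 alone lay above the controls. There the change was 0.15 ± 0.29 (95% interval -0.52 to 0.82, adjusted p = 0.729), and -0.26 without replicate 3 (adjusted p = 0.0898). *ENTPD4*, which overlaps *LOXL2* on the same strand, moved the other way, by 0.38 in shD3 #1 and 0.46 in shD3 #4.

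*LOXL4* (chromosome 10, 98247690 to 98268194, minus strand), another lysyl oxidase, was expressed at a low level, with 33 to 171 counts per library in the first set. It rose from 3.27 and 4.37 cpm in siControl to 8.07, 7.54 and 7.97 in siD3 #3, without overlap and by 1.05 ± 0.19 on the log2 scale (adjusted p = 0.00435). It rose from 2.75, 1.91 and 1.97 cpm to 4.96, 3.94 and 3.46 in shD3 #1 (0.91 ± 0.20, adjusted p = 0.0011). In shD3 #4 the groups overlapped, with 1.81, 1.62 and 1.89 cpm against 1.75, 2.12 and 2.52 (0.25 ± 0.21, 95% interval -0.18 to 0.69). The deep set, with the same shRNA #1, gave 4.61, 3.87 and 4.17 cpm in controls and 4.63, 4.94 and 4.24 after knockdown. These groups overlapped too, and the change of 0.12 ± 0.12 had a 95% interval of -0.14 to 0.38, against 0.48 to 1.34 in the first set. The difference between the sets was not tested.

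The other lysyl oxidases were near the limit of detection. *LOX* (chromosome 5, 122063195 to 122078413, minus strand) had 0 counts in both siControl libraries and 2, 4 and 14 in siD3 #3. Against a floor of 3 counts over the control group, the pooled knockdown counts were 3.72-fold higher. They were 1.69-fold higher without replicate 3, an omission chosen after seeing the data. These values take no account of the spread between the knockdown libraries and are not a minimum. Replicate 1 stood at 0.0944 cpm, where the floor was 0.0915 cpm. It had 3, 2 and 4 counts in sh1Control and 3, 7 and 8 in shD3 #1, and 0, 7 and 3 in sh4Control and 11, 5 and 4 in shD3 #4, overlapping in each pair. In the deep set 49, 18 and 38 counts in controls stood beside 14, 11 and 25 after knockdown in smaller libraries, a log2 fold change of -0.26 ± 0.36 (adjusted p = 0.548). *LOXL3* (chromosome 2, 74532258 to 74555690, minus strand) had 0 to 12 counts in the first set, and its deep log2 fold change was -0.24 ± 0.37 (adjusted p = 0.586). *LOXL1* (chromosome 15, 73925989 to 73952137, plus strand), the isoform best known from elastic fibres, had 0 to 7 counts in the first set and 2 to 20 in the deep set. In the deep set the 95% interval of the change ran from -1.03 to 0.51 for *LOX* and from -1.02 to 0.54 for *LOXL3*, so the direction of neither was resolved at this depth.

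Whether the 3 first knockdowns differed was tested in 1 edgeR model of all 17 libraries. Of 9 members tested, 5 differed between knockdowns at an adjusted p under 0.05, where 52.4% of all 18672 genes did. *P4HA2* gave the smallest adjusted p (2.17e-06), followed by *PLOD1* (0.00779), *LOXL2* (0.0128), *PLOD3* (0.029) and *LOXL4* (0.0448). The calls of *P4HA2* and *PLOD1* held with each library left out in turn. That of *LOXL2* was lost without siControl replicate 1 (adjusted p = 0.0986). That of *PLOD3* was lost in 5 of 17 omissions (adjusted p 0.055 to 0.0713), those of sh1Control replicates 2 and 3, shD3 #1 replicates 1 and 2 and sh4Control replicate 3. That of *LOXL4* was lost in 11 of 17 (0.0502 to 0.136), those of siControl replicate 1, siD3 #3 replicates 1 and 2, sh1Control replicates 2 and 3, shD3 #1 replicate 1, all sh4Control replicates and shD3 #4 replicates 1 and 2.

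Between the shRNAs, 2 members differed, against 39.4% of all genes. The effect on *P4HA2* was 0.66 ± 0.14 higher on the log2 scale with shD3 #1 than with shD3 #4 (adjusted p = 0.000763), and that on *PLOD3* was 0.56 ± 0.18 higher (adjusted p = 0.0201; 0.0515 without sh4Control replicate 3). The effects on *LOXL2* differed by -0.10, with a 95% interval of -0.66 to 0.47. Between siD3 #3 and the mean of the shRNAs, 3 members differed, against 29.1% of all genes. The effect of siD3 #3 was 0.93 ± 0.13 higher for *P4HA2* (adjusted p = 1.15e-05), 0.92 ± 0.25 higher for *LOXL2* (adjusted p = 0.00803) and lower for *PLOD1*, by -0.41 ± 0.13 (adjusted p = 0.022). Without siControl replicate 1 the adjusted p was 0.0725 for *LOXL2* and 0.106 for *PLOD1*, and without siD3 #3 replicate 1 it was 0.0536 for *PLOD1*. Harvest day, method of depletion, with doxycycline for the shRNAs alone, and depth of depletion differed together between siRNA and shRNA. They cannot be told apart. In the same model the effect of siD3 #3 on *THUMPD3* was lower, by -1.21 ± 0.10 (edgeR adjusted p = 3.98e-09). Depth of depletion differed between the shRNAs too. The effect on *THUMPD3* was 0.70 ± 0.10 higher with shD3 #1, a shallower fall than with shD3 #4 (edgeR adjusted p = 1.17e-05). Its part in the differences above was not tested.

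For the average effect of the 3 knockdowns, *LOXL4* was called higher, where 10.3% of all genes were. Called lower were 0 members (2 at an unadjusted p under 0.05, 0 by DESeq2), against 6.96% of all genes. *LOXL4* averaged 0.73 ± 0.11 on the log2 scale (adjusted p = 1.4e-05). *LOX* also passed, with an adjusted p of 0.00402. It entered this fit through its higher knockdown libraries (up to 0.815 cpm, against at most 0.334 in controls). Its call is therefore given as a description and is not set against the 10.3%. No fold is given because both siControl libraries were at 0, and without siD3 #3 replicate 3 it failed the count filter and was not tested. *LOXL2* averaged -0.47 ± 0.11 (adjusted p = 0.00156), short of 1.5-fold, and -0.59 without siD3 #3 replicate 3, past it. The averages were 0.38 for *PLOD3*, 0.28 for *PLOD2* and 0.22 for *PLOD1*, each with an adjusted p under 0.05 and under 1.5-fold, as was *P4HA1* at -0.13 (adjusted p = 0.0177; 0.0576 to 0.0643 without siControl replicate 2 or siD3 #3 replicate 1 or 2).

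The enzymes act beside other proteins of collagen maturation, taken as lists by function. Over all genes tested, 12.5% were called higher and 9.42% lower in siD3 #3, and 14.5% and 14.6% in shD3 #1. The shares were 8.00% and 4.49% in shD3 #4 and 15.0% and 14.1% in the deep set. Counts for this list and those that follow stand beside these shares, and no list was tested as a set. Where a gene is said below to have entered a fit through its knockdown or control libraries, its call is a description. Such a call is not set against the shares. Of the other hydroxylation and glycosylation genes, 0 were called higher and 1 lower of 9 tested in siD3 #3. With shD3 #1, 1 was higher and 1 lower of 9, with shD3 #4 0 and 1 of 9, and in the deep set 3 and 1 of 10. *P4HA3*, the third catalytic subunit, fell by 0.93 in shD3 #1 and by 0.87 in the deep set on the log2 scale, and was 0.36 higher in shD3 #4, under 1.5-fold. *P3H3*, a prolyl 3-hydroxylase family member, fell by 0.85 in siD3 #3 and by 0.60 in shD3 #4, and stood at 0.29 in shD3 #1 and 0.42 in the deep set. *COLGALT1*, which adds galactose to hydroxylysine, rose by 0.59 in shD3 #1 and by 0.63 in the deep set, and *P3H1*, a prolyl 3-hydroxylase, by 0.86 in the deep set. At an unadjusted p under 0.05, 7 of the 9 were higher in shD3 #4, each under 1.5-fold, and 0 in siD3 #3. Of these 7, all but *PPIB* (0.0511) also had an edgeR adjusted p under 0.05, from 1.33e-05 (*P3H1*) to 0.00453 (*CRTAP*). They missed only the threshold in size. DESeq2 called 0 wherever a count of 0 is given for the lists. *P4HB*, the shared subunit of the prolyl 4-hydroxylases, was not called in any comparison (log2 fold change 0.03, 0.01, 0.34 and 0.16), nor were *CRTAP* and *PPIB*, the partners of P3H1. Each of these genes had an adjusted p under 0.05 in at least 1 shRNA comparison, under 1.5-fold.

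**Figure D4:**
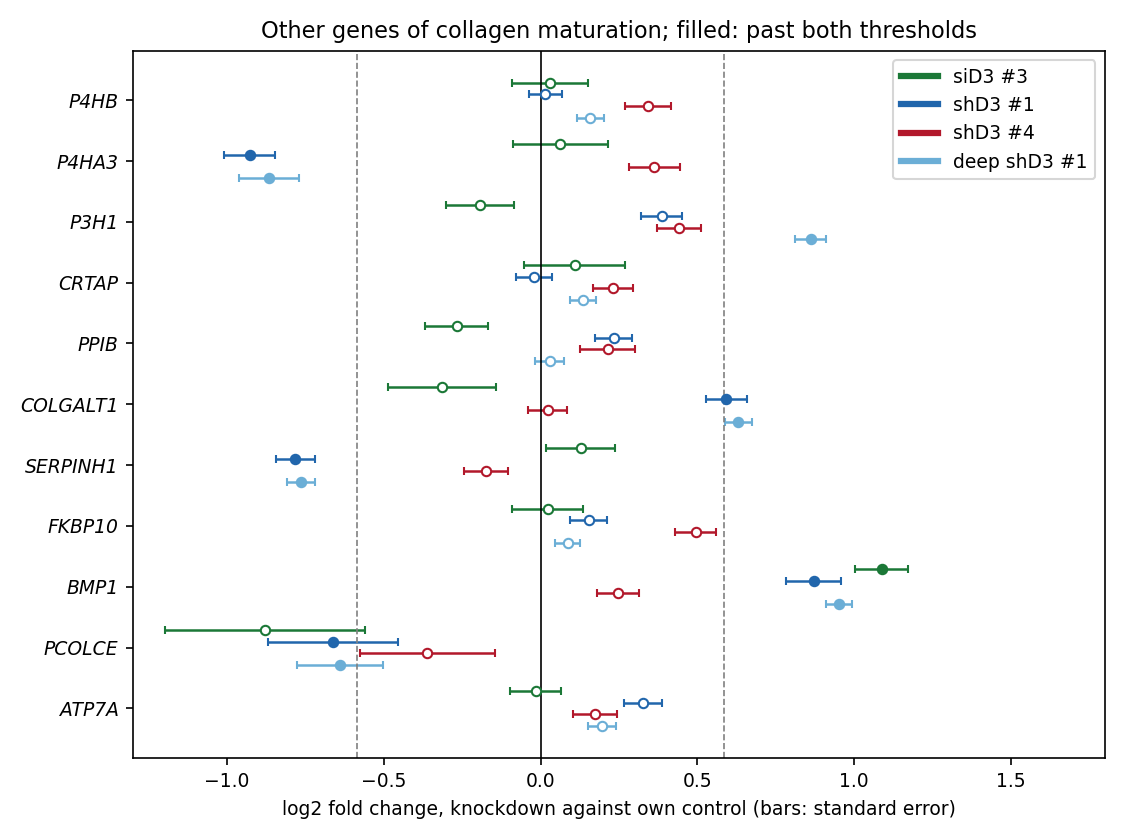
Log2 fold change (x axis) with standard errors from edgeR for 11 other genes of collagen maturation (rows) in each knockdown against its own control; filled points passed both thresholds, and dashed lines mark a 1.5-fold change. *BMP1* lies between 0.87 and 1.09 in all comparisons but shD3 #4 (0.25), and *SERPINH1* and *P4HA3* lie near -0.8 to -0.9 in both shD3 #1 sets.

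Of 12 procollagen folding and export genes, 0 were called higher and 0 lower by edgeR in siD3 #3. There 2 were higher and 3 lower at an unadjusted p under 0.05. All of these but *KDELR2* (0.0718) also had an adjusted p under 0.05, under 1.5-fold. The counts were 2 higher and 2 lower with shD3 #1, 1 and 1 with shD3 #4, and 4 and 2 in the deep set. *SERPINH1*, the collagen chaperone HSP47, fell by 0.78 in shD3 #1 and by 0.76 in the deep set, and its values were 0.13 in siD3 #3 and -0.17 in shD3 #4. The extremes were *FKBP7* (0.99) and *FKBP14* (-0.94) in shD3 #1, both prolyl isomerases, *SEC24D* (0.59) and *TMEM38B* (-0.69) in shD3 #4, and *SEC24D*, a coat protein of export vesicles, at 0.93 in the deep set. *FKBP10*, which partners with PLOD2, was not called, with 0.02, 0.15, 0.49 and 0.09. Its rise in shD3 #4 had an edgeR adjusted p of 1.38e-06 and missed only the threshold in size.

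Of the procollagen proteases and enhancers, 2 were higher and 0 lower (1 at an unadjusted p under 0.05, *PCOLCE*) of 6 tested in siD3 #3, 2 and 2 with shD3 #1, 1 and 1 with shD3 #4, and 2 and 2 in the deep set. *BMP1*, the C-proteinase that also activates pro-LOX, rose from 63.4 to 134.8 cpm in siD3 #3 (log2 fold change 1.09 ± 0.08, adjusted p = 8.53e-05), by 0.87 in shD3 #1 and by 0.95 in the deep set, and was 0.25 in shD3 #4. *FURIN* rose by 1.08 in shD3 #1 and by 1.34 in the deep set. It was 0.43 higher in shD3 #4 and 0.31 higher in siD3 #3, both under 1.5-fold (edgeR adjusted p = 8.26e-05 and 0.0359). *TLL2* rose by 2.16 in siD3 #3, at a low level (from 0.386 to 1.67 cpm), and entered this fit through its knockdown libraries. *TLL1* rose by 1.51 in shD3 #4, while its value was -0.43 in shD3 #1. *PCOLCE2* fell by 0.94, 0.66 and 1.13 in shD3 #1, shD3 #4 and deep shD3 #1, and *PCOLCE*, a C-proteinase enhancer, fell by 0.66 in shD3 #1 and by 0.64 in the deep set.

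Of 7 cofactor supply genes, 0 and 0 were called in siD3 #3 (edgeR; 1 and 0 at an unadjusted p under 0.05), 1 and 2 with shD3 #1, 2 and 0 with shD3 #4, and 0 and 2 in the deep set. At an unadjusted p under 0.05, 0 were lower in shD3 #4 and 1 was higher in the deep set. The ascorbate transporter *SLC23A1* fell by 3.77 in shD3 #1 and by 3.26 in the deep set but rose by 1.67 in shD3 #4. *SLC23A2* fell by 1.36 in shD3 #1 and by 0.78 in the deep set and rose by 0.93 in shD3 #4. The copper chaperone *ATOX1* rose by 0.87 in shD3 #1 but stood at -0.34 in the deep set (adjusted p = 0.0414). It stood at 0.52 in siD3 #3 (adjusted p = 0.019, under 1.5-fold) and -0.06 in shD3 #4. *ATP7A*, which loads copper onto lysyl oxidases, was not called in any comparison (-0.02, 0.33, 0.17 and 0.20). In shD3 #1, shD3 #4 and the deep set its edgeR adjusted p was 0.000246, 0.0455 and 0.00164, each under 1.5-fold.

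Among the substrates, fibrillar collagens were called higher and lower in 3 and 0 of 8 tested in siD3 #3 (0 lower at an unadjusted p under 0.05), 5 and 2 of 8 with shD3 #1, 4 and 1 of 8 with shD3 #4, and 4 and 1 of 7 in the deep set. The extremes were *COL5A3* at 2.71 and *COL27A1* at 0.87 in siD3 #3, and *COL3A1* at 3.45 and *COL5A3* at -2.66 in shD3 #1. In shD3 #4 they were *COL11A1* at 1.92 and *COL5A1* at -1.34, and in the deep set *COL3A1* at 5.63 and *COL27A1* at -0.77. Some of these rest on low levels, and the count filter keeps a gene that is high in 1 group alone. *COL3A1* went from 0.594 to 6.44 cpm in shD3 #1 and from 0.0693 to 3.46 in the deep set. It entered these fits, and that of shD3 #4 (from 0.344 to 1.23 cpm), through its knockdown libraries. So did *COL24A1* in the deep set (from 0.119 to 0.470 cpm). *COL5A3* went from 0.639 to 4.23 cpm in siD3 #3 and from 1.06 to 0.191 in shD3 #1, where it entered through its controls. Of 7 elastic fibre genes, 2 and 1, 1 and 3, 1 and 2, and 1 and 3 were called. *FBN1* rose by 2.00 in siD3 #3, by 1.70 in shD3 #1 and by 1.40 in the deep set. In shD3 #4 it was 0.50 higher, under 1.5-fold (edgeR adjusted p = 5e-05). *FBLN5* fell by 2.60 in shD3 #1 (from 2.38 to 0.364 cpm), where it entered through its controls, and by 1.81 in the deep set. It rose by 0.70 in shD3 #4, where *FBN2* fell by 1.40 (in siD3 #3 *FBN2* rose by 0.77). In shD3 #1 *FBN2* was 0.44 lower, under 1.5-fold (edgeR adjusted p = 1.22e-05), and it stood at 0.04 in the deep set. *ELN*, also at a low level, fell by 1.10 in siD3 #3 (from 1.18 to 0.544 cpm, edgeR adjusted p = 0.0497) and by 0.68 in the deep set.

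Of 26 hypoxia-induced genes, 6 were higher and 3 lower in siD3 #3, 4 and 1 with shD3 #1, and 5 and 7 in the deep set. With shD3 #4, 1 was higher and 0 lower, and 7 were lower at an unadjusted p under 0.05. Of these 7, all but *VEGFA* (0.0519) also had an edgeR adjusted p under 0.05, each under 1.5-fold. The medians in siD3 #3, shD3 #1, shD3 #4 and the deep set were 0.10, 0.05, 0.05 and -0.12. *CA9* fell by 1.55, 2.21 and 1.75 in siD3 #3, shD3 #1 and deep shD3 #1. *ADM* rose by 0.94 in siD3 #3, and *EGLN3* by 0.65, 1.39, 0.65 and 1.08 in the 4 comparisons.

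By Pearson correlation over the 17 first libraries of log2 cpm less the mean of the own control, among 12840 genes, *LOXL2* was most like *ANPEP* (0.938), *VCL* (0.929) and *PCOLCE2* (0.926), and *LOXL4* most like *FBN1* (0.944), *GAS6-AS1* (0.943) and *CUTA* (0.938). The libraries share their groups and depth, so these values are descriptions.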

How the data were processed

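Ribosomal RNA-depleted total RNA was sequenced with a directional kit. The authors trimmed reads (Trimmomatic 0.40, from the submitters' processing notes), aligned them to GRCh38.p14 with STAR 2.7.10a and deposited raw gene counts in 2 tables. The annotation is described as RefSeq, whereas the first table lists Ensembl identifiers, of which 61757 of 61806 were matched to symbols. The strand counted is not given in the sources used here. The authors' own test was DESeq2. Here the deposited counts were fitted per comparison with edgeR 4.0.16 (filterByExpr, TMM, glmQLFit, glmQLFTest), and the 17 first libraries also with a mean per group. Log2 fold changes carry standard errors from the F statistic. Depth, given in the report, limits the precision of low counts. Alternatives were DESeq2 1.42.0 and its size factors, other count filters, glmTreat, a 2-fold threshold, a replicate block and each library left out. The fits were tested on simulated data. Named genes were the 10 members, *THUMPD3*, 11 fixed partner genes and, for each of 7 lists, the called genes with the largest and smallest change; repeats of a gene in other comparisons were added after their values were seen. The members and lists were chosen with earlier results of these data known. Gene positions and canonical lengths came from GENCODE v44 (GRCh38).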

Additional observations from a re-analysis of the deposited data

Results flagged for a closer look

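The effect of depletion differed between the 3 first knockdowns for 5 members, by the F test of the interaction in the edgeR model of 17 libraries. The adjusted p was 2.17e-06 for *P4HA2*, whose log2 fold changes were 0.74, 0.15 and -0.51 in siD3 #3, shD3 #1 and shD3 #4. It was 0.00779 for *PLOD1* (-0.05, 0.54 and 0.20) and 0.0128 for *LOXL2* (0.15, -0.80 and -0.71). It was 0.029 for *PLOD3* (0.26, 0.75 and 0.19) and 0.0448 for *LOXL4* (1.05, 0.91 and 0.25). Over all genes tested, 52.4% differed in the same test.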

How the results depend on the processing

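With glmTreat, which tests against a 1.5-fold change, members called fell to 0 higher in siD3 #3, 1 higher and 0 lower in shD3 #1, 0 lower in shD3 #4 and 0 higher in the deep set, and all genes called to 1670, 2751, 682 and 3356. At a 2-fold threshold they were 1, 0 and 0, 0, and 0 higher and 0 lower, with 2125, 2280, 718 and 2878 genes. DESeq2 left 3 members different between knockdowns (*LOXL2* at an adjusted p of 0.0555, *LOXL4* at 0.108). Without a filter, 4 differed between the shRNAs. With at least 10 counts in every library, which *LOX* did not meet, the average gave 1 member higher and 1767 genes. In this section *LOX* is counted for the average wherever it passed. Replicate numbers did not pair the samples (correlations of deviations -0.108 to 0.142). No comparison had every pair over 0.1, and not every library was closest to its own number. With a replicate block, 4 members differed between the shRNAs and 1 was lower on average. *LOXL2* in siD3 #3 reversed to -0.25 (adjusted p = 0.032) and the siRNA-shRNA difference of *PLOD2* to -0.068. As siControl has no replicate 3, siD3 #3 replicate 3 is alone in its block. These 2 reversals are therefore close to the values without that library (-0.26 and -0.082). The shRNA difference of *P4HA1* became 0.014 with DESeq2 and 0.011 with its size factors. Leaving out 1 library gave 1 to 2 members higher in siD3 #3, 3 to 7 different between knockdowns, 1 to 4 between the shRNAs, 1 to 4 between siRNA and shRNA, and 1 to 2 higher and 0 to 1 lower on average. It turned the sign in siD3 #3 of *LOXL2* (-0.26 to 0.37), *PLOD1* (-0.13 to 0.013) and *PLOD3* (-0.086 to 0.69), in the deep set of *LOX* (-0.55 to 0.002) and *LOXL3* (-0.46 to 0.14), between the shRNAs of *LOX* (-0.71 to 0.86), *LOXL2* (-0.24 to 0.048), *LOXL3* (-0.70 to 0.62) and *P4HA1* (-0.047 to 0.014), and between siRNA and shRNA of *PLOD2* (-0.082 to 0.28) and *PLOD3* (-0.55 to 0.22). The cause was not tested. Median-of-ratios scaling moved the median of all genes by at most 0.009.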
